A study of Mus musculus with 30 samples.

Results

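The sarcomere and Z-disc genes are a listed set of 40 genes that encode the contractile filaments of striated muscle and the structures that hold them in register. The members were taken by gene symbol from the list alone. The list itself was chosen with earlier results of these data known. All 40 were found among 20764 genes in the heart table and among 54532 genes in the HL-1 table. By role, 9 belong to the thick filament and the M-band, 14 to the thin filament and 17 to the Z-disc and its partners.

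mRNA was sequenced from hearts of female mice, in 6 groups of 3 hearts, and from HL-1 cells, in 4 groups of 3 libraries. The mice were labelled C57BL6 and described in the study's methods as a cross of the J and N substrains. The methods name heart tissues and do not say whether the atria were kept. Young mice were 2 months old and drank water. Old mice were 12 months old and drank either water (H2O, labelled MQ) or water holding 3 g/L nicotinamide riboside (NR), a precursor of the cofactor NAD+. Hearts of each of these 3 kinds were collected at Zeitgeber time (ZT) 10, late in the light phase, or ZT22, late in the dark phase. HL-1 is a mouse line from an atrial tumour, and its libraries are of 1 line. The cells were left untreated (Ctrl), given FK866 (FK), an inhibitor of the NAD+-producing enzyme NAMPT, given FK866 and NR (FK_NR), or given FK866, NR and Ex527 (FK_NR_Ex), an inhibitor of the deacetylase SIRT1. The study asked how age and NAD+ supply change day and night gene expression in the heart. With 2 times of day, a comparison gives a difference between those times and no rhythm. All hearts were from females, and nothing in the labels ties hearts or cell libraries to shared litters or days. The study's methods say that NR was given to randomised cages of several mice. Which hearts shared a cage is not given, so the spread between cages cannot be told apart from that between hearts.

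In the sarcomere, myosin thick filaments slide past actin thin filaments. Titin spans from the Z-disc, where alpha-actinin anchors thin filaments of opposite polarity, to the M-band, where myomesins crosslink thick filaments. The Z-disc and its neighbouring discs also carry proteins that sense stretch and that turn over or repair damaged filaments, such as filamin C, myotilin, Xin and the chaperone alphaB-crystallin. Several sarcomere proteins come in cardiac and skeletal muscle forms, and the adult heart uses mostly the cardiac ones.

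Heart libraries held 3922137 to 7562215 counts (median 5534659), and HL-1 libraries held 21337922 to 35000109 (median 25529294). The members took 1.74% to 2.22% of the counts of a heart library and 0.139% to 0.157% of those of an HL-1 library. Titin (Ttn), the spring that spans from Z-disc to M-band, alone gave 18.4% to 22.7% of the members' counts in hearts. All 8 cardiomyocyte markers listed were detected in every heart, and their summed normalised counts lay between 31940 and 49480. The highest sum was in the smallest library and the lowest in the largest, both old H2O hearts at ZT22. Raw counts of its genes Mb (993 to 1097) and Myh6 (9056 to 10336) changed little between libraries. This sum need not follow cardiomyocyte content. The summed level of the 9 atrial markers was less even, from 2452 to 7071, and separated the groups of old hearts at ZT10 (4704 to 6073 with H2O, 2496 to 2636 with NR). In bulk samples, fewer cells of a type and less RNA per cell cannot be told apart. The share of atrial tissue in each sample is not given, and its part in the atrial sums was not tested.

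Levels per length placed the cardiac forms at the top and skeletal muscle forms at the bottom. The counts of the abundant members rose less than the library total, as given below. The order here and by role is thus one of counts and need not be one of transcript amounts. Over the 18 hearts, Actc1, cardiac alpha-actin, stood at 1690 ± 300 normalised counts per kilobase of exon (SD, n = 18). Mybpc3, cardiac myosin-binding protein C, stood at 1610 ± 232, and Tcap, the titin cap telethonin, at 1500 ± 325. These first 3 places differed by less than their spread. The lowest level was that of Tnni1, the slow skeletal troponin I, at 1.5 ± 0.58 normalised counts per kilobase, with 1 to 10 counts in a library. Nebulin (Neb), the thin filament ruler of skeletal muscle, followed at 6.36 ± 2.41 and the myomesin Myom3 at 11.4 ± 2.96.

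By role, the thick filament and M-band genes spanned a wide range of levels per kilobase. Below Mybpc3 came the ventricular myosin light chains Myl2 (959 ± 137) and Myl3 (911 ± 151), and the myomesins Myom2 (641 ± 75.9) and Myom1 (605 ± 61.7). Myl2 and Myl3 differed by less than their spread, as did Myom2 and Myom1. Myh7b, at 209 ± 35.7, and Ttn, at 191 ± 15.3, lay lower, and the fast skeletal myosin-binding protein Mybpc2 stood at 65.7 ± 14.5. Ttn thus ranked low per length although it had the most counts, 17227 to 29719 in a library.

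In the thin filament, the cardiac troponins C (Tnnc1, 1190 ± 195), I (Tnni3, 1010 ± 149) and T (Tnnt2, mean 670, range 538 to 864) stood far above the slow skeletal troponin T, Tnnt1, with a mean of 93.5 (range 68.1 to 111). Of the tropomyosins, Tpm1 stood at 485 ± 66.9 and Tpm2 at 112 ± 23.6. Among the genes that set filament length and cap its ends, the leiomodin Lmod2 led with 1170 ± 131. Lmod3 followed at 484 ± 52.0, then Capzb at 380 ± 29.6, the tropomodulin Tmod1 at 355 ± 31.4 and Nebl at 206 ± 24.5.

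Z-disc levels ran from Tcap down to Pdlim3. The LIM protein Fhl2 (1200 ± 180) and Actn2 (1150 ± 158) came next to Tcap, followed by the intermediate filament desmin (Des, 879 ± 125) and Cryab (858 ± 131). Fhl2 and Actn2 differed by less than their spread, as did Des and Cryab. The alpha-actinin partner Ldb3, the actin-anchoring Nrap, the muscle LIM protein Csrp3, the calcineurin-binding Myoz2 and the small protein Smpx lay between 413 and 800. Flnc, Xirp1, Synpo2l, Mypn, Myot and the PDZ and LIM protein Pdlim5 lay between 284 and 446, and Pdlim3 was lowest at 42.3 ± 12.7.

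The normalised counts of the abundant members moved with library depth. Actc1 had 2579 counts in the smallest library and 2800 in the largest, a ratio of 1.09, while the totals of these libraries differed by a ratio of 1.93. Both were old H2O hearts at ZT22. Across the 18 hearts the raw count of Actc1 stayed between 2549 and 2847, so its normalised count fell as the total rose. Tcap and Myot, a Z-disc crosslinker, did not follow this alone: at a like total, Tcap split into ZT10 and ZT22 hearts, and Myot followed age and time.

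**Figure D1:**
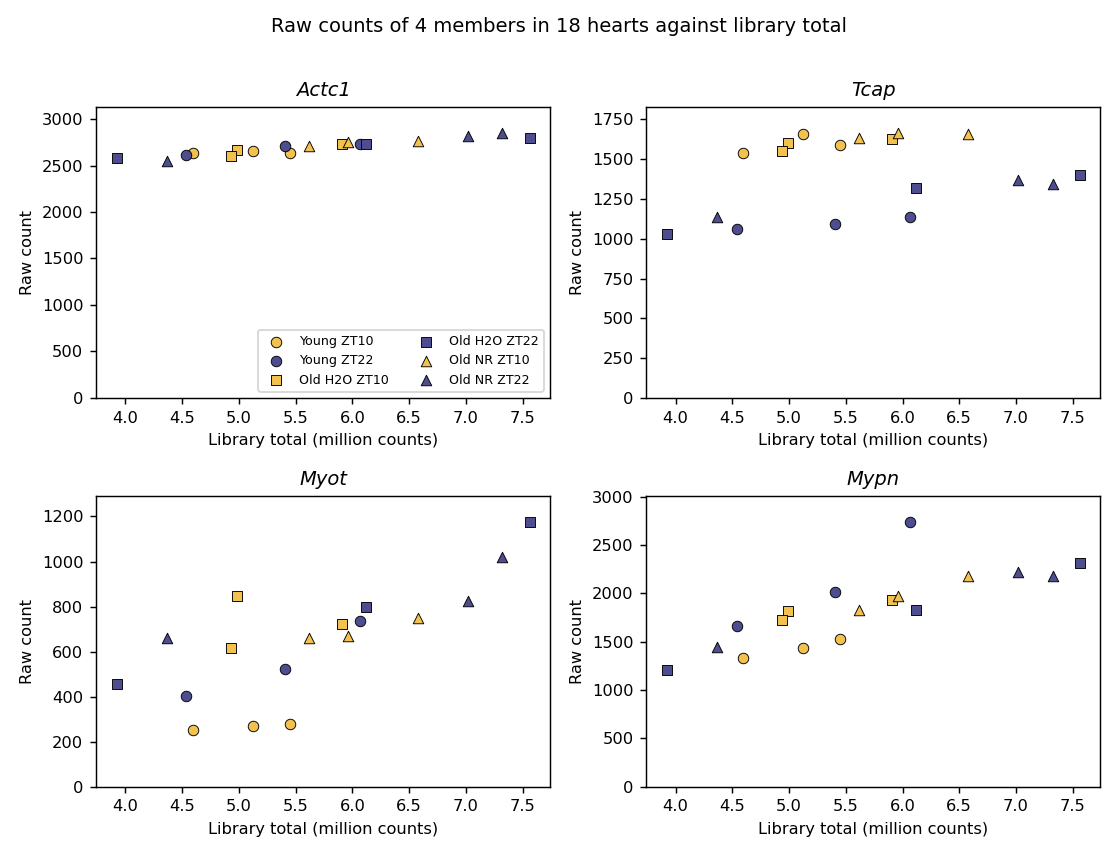
Raw count of Actc1, Tcap, Myot and Mypn (y axis) against the library total (x axis) in 18 hearts, with 1 point per heart, colour for time and shape for age and drinking water. Actc1 stays between 2549 and 2847 over totals from 3922137 to 7562215, whereas Myot spans 250 to 1175.

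A term for the log2 library total in the fit over all genes gave the size of this movement. With that term, 25 of 40 members fell with depth at an adjusted p under 0.05, against 9.2% of the 15443 genes tested, and 1 member rose, against 2.74%. The median change per doubling of the total was -0.48 on the log2 scale over the members and 0.06 over all genes. It followed the counts per base of exon. Among the 8 members with more than 1 count per base, all 8 fell, with a median of -0.78, and all 39 genes at that density had a median of -0.74. The steepest was Actc1, at -0.97 ± 0.05 (SE, adjusted p = 4.31e-11). The 1 that rose was Pdlim3, the PDZ and LIM protein ALP of the Z-disc, at 0.86 ± 0.22 (adjusted p = 0.0112). The authors removed duplicate reads before counting, and the part of that step in the pattern was not tested.

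The members without a called depth term were the skeletal muscle forms Mybpc2, Tnnt1, Tnni1 and Neb, the tropomyosin Tpm2, nebulette (Nebl), Myh7b, Myom3, Lmod3, Myot, Flnc, Xirp1, Synpo2l and Mypn. The 25 that fell were the filament and M-band genes: Ttn, Mybpc3, Myl2, Myl3, Myom1, Myom2, Actc1, Tnnt2, Tnni3, Tnnc1, Tpm1, Lmod2, Tmod1 and Capzb. They were also the Z-disc genes Actn2, Tcap, Ldb3, Csrp3, Myoz2, Pdlim5, Nrap, Fhl2, Smpx, Des and Cryab. Of the members described below as changed with time or age in hearts, Tcap is in this group, with a depth change of -0.75 ± 0.06 (SE), and the others lie between -0.23 and 0.10.

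**Figure D2:**
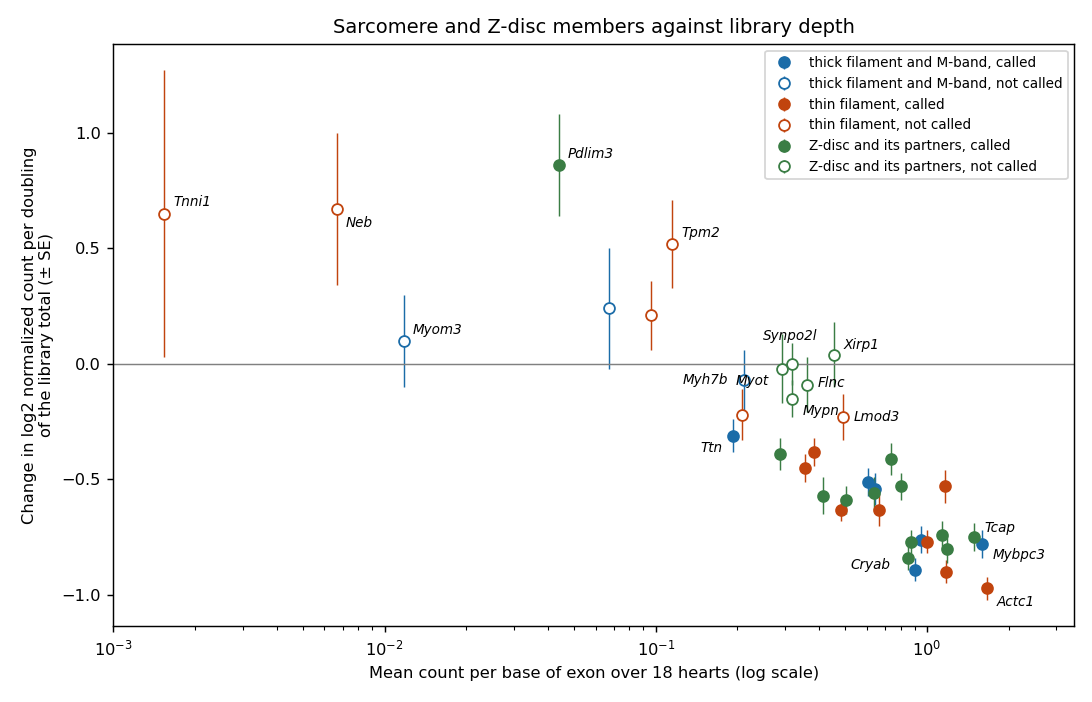
Change in log2 normalised count per doubling of the library total (y axis, ± SE) against the mean count per base of exon over 18 hearts (x axis, log scale) for the 40 members. Filled points have an adjusted p under 0.05 for the depth term. The members with the highest counts per base, such as Actc1 at -0.97, lie lowest, while Myot, Flnc, Xirp1 and Synpo2l lie near 0.

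In young hearts, 7 members differed between ZT10 and ZT22. Myot, Mypn, Flnc and Xirp1, which all belong to the Z-disc and its partners, were higher at ZT22, and Myom3, Tcap and Lmod3 were higher at ZT10. By role, 5 of 17 Z-disc members were called, 1 of 14 thin filament members and 1 of 9 thick filament and M-band members. The 7 of 40 stand against 14.4% of all 15443 genes called, so the members were called at about the rate of all genes. By direction, 3 of 40 were higher at ZT10, against 6.8% of all genes, and 4 of 40 were lower, against 7.57%.

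Myot (ENSMUSG00000024471, chr18:44334074-44355724, plus strand, GRCm38 as all gene positions here) encodes the actin crosslinker myotilin and had 292, 281 and 308 normalised counts in the young hearts at ZT10. At ZT22 it had 502, 678 and 536. Every ZT22 heart was above every ZT10 heart, with a log2 fold change of -0.97 ± 0.14 (SE, ZT10 against ZT22, edgeR adjusted p = 5.09e-05), or 1.96-fold higher at ZT22. Mypn (ENSMUSG00000020067, chr10:63115795-63203952, minus strand), myopalladin, which ties nebulin and nebulette to alpha-actinin, had 1567, 1552 and 1639 normalised counts at ZT10. It had 2066, 2516 and 2067 at ZT22. The groups did not overlap, and the log2 fold change was -0.48 ± 0.09 (SE, adjusted p = 0.000461).

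Flnc (ENSMUSG00000068699, chr6:29433256-29461883, plus strand), filamin C, an actin crosslinker of Z-discs and intercalated discs, had 3134, 2652 and 3010 normalised counts at ZT10 and 3964, 4978 and 3508 at ZT22. The groups did not overlap, and the log2 fold change was -0.50 ± 0.11 (SE, adjusted p = 0.00363). Xirp1 (ENSMUSG00000079243, chr9:120013755-120023598, minus strand), the filamin C partner Xin, had 2273, 2218 and 2323 at ZT10 and 2802, 4379 and 2675 at ZT22. Xirp1 had a log2 fold change of -0.53 ± 0.12 (SE, adjusted p = 0.00494). The young ZT22 replicate 2 was the highest of the 18 hearts for both genes and also for Pdlim3, at 445 normalised counts. Without that heart both stayed called, at -0.35 for Flnc and -0.27 for Xirp1. With DESeq2 on only the young groups, Xirp1 was not called (-0.53, adjusted p = 0.175).

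Tcap (ENSMUSG00000007877, chr11:98383811-98384953, plus strand), which caps titin at the Z-disc, went the other way, with 1809, 1615 and 1895 normalised counts at ZT10 and 1315, 1045 and 1118 at ZT22. All young ZT10 hearts were above all young ZT22 hearts, with a log2 fold change of 0.61 ± 0.15 (SE, adjusted p = 0.00588). Myom3 (ENSMUSG00000037139, chr4:135759715-135815564, plus strand), the least abundant of the myomesins, had 81.7, 76.2 and 72.6 at ZT10 and 49.7, 31.3 and 43.0 at ZT22, again without overlap. The log2 fold change of Myom3 was 0.92 ± 0.18 (SE, adjusted p = 0.00131), or 1.89-fold. Lmod3 (ENSMUSG00000044086, chr6:97238534-97252759, minus strand), a leiomodin that nucleates actin, had 1226, 1144 and 1140 at ZT10 and 1081, 783 and 920 at ZT22. Its log2 fold change of 0.34 ± 0.09 (SE, adjusted p = 0.0174) was the smallest of the 7. The call of Lmod3 was lost without young ZT10 replicate 1 (0.30, adjusted p = 0.0719), young ZT22 replicate 2 (0.23, adjusted p = 0.131) or young ZT22 replicate 3 (0.33, adjusted p = 0.0546).

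The other 33 members had log2 fold changes between -0.60 and 0.33 that did not pass the test. The median over all 40 was 0.034, beside 0.007 over all genes, and the median size of the change was 0.079, beside 0.162. Whether the fall of 25 members with depth made their changes smaller, here and in the heart comparisons below, was not tested. Of 10 marker lists of heart and other cell types, 3 did not overlap between the young groups. The endothelial sum was 9981 to 10530 at ZT10 and 11190 to 12130 at ZT22, the fibroblast sum was 8668 to 9318 and 8249 to 8411, and the lung list held 1 gene at 0 to 2 counts. Their part in these differences was not tested. For the marker lists, here and below, the share of all genes without overlap between groups was not computed. The counts of lists thus have no background to be read against.

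**Figure D3:**
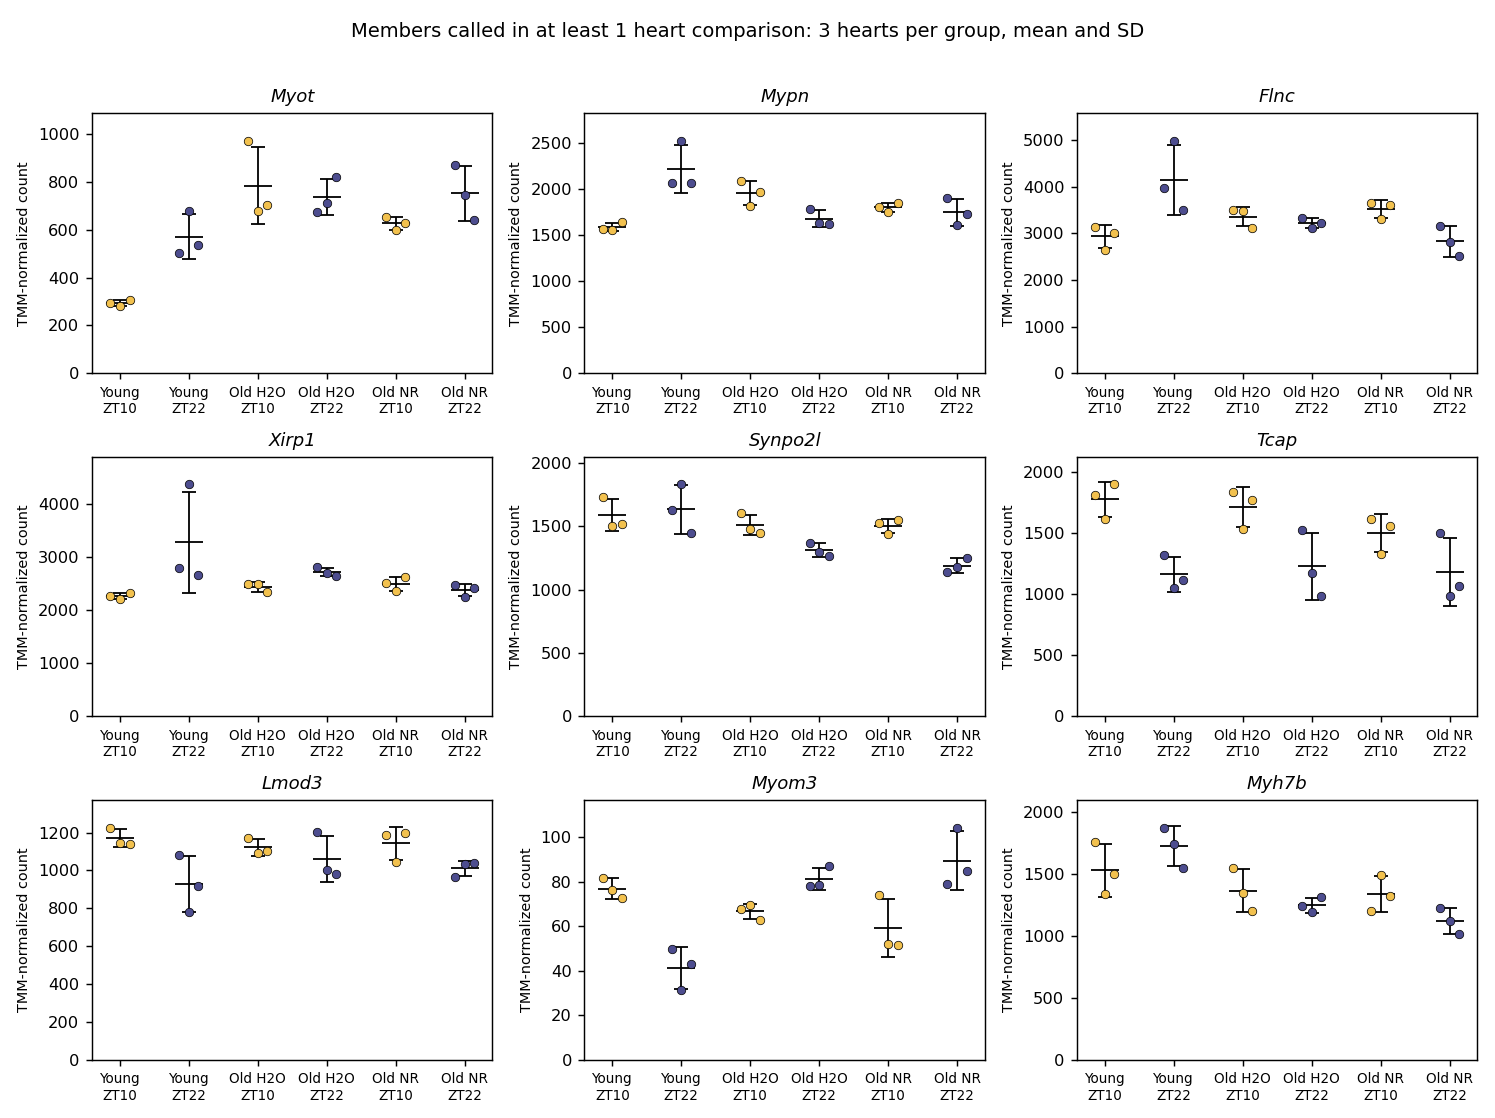
TMM-normalised counts (y axis, from 0) of the 9 members called in at least 1 heart comparison, with 3 hearts per group as points and the mean with SD as bars. Myot is lowest in young ZT10 hearts (281 to 308) and Myom3 in young ZT22 hearts (31.3 to 49.7), while Tcap is higher at ZT10 than at ZT22 on average in each of the 3 kinds of mice.

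Promoter sequences are shown for 3 of these members, Mypn, Flnc and Myom3. The others called, Myot, Xirp1, Tcap and Lmod3, had no entry in the RefSeq promoter table. Mypn and Flnc were higher at ZT22 and Myom3 at ZT10, and 3 genes are too few to compare motifs by direction. The windows run from 250 bases before the RefSeq start to 20 after it, on GRCm38.p6, 5′ to 3′ on the gene's strand. They lie at chr10:63203933-63204202 (minus strand), chr6:29432903-29433172 (plus strand, the upstream of the starts listed) and chr4:135759465-135759734 (plus strand). Capitals mark the letters of an M-CAT box (CATTCC or its reverse GGAATG), bound by TEAD factors.
Mypn: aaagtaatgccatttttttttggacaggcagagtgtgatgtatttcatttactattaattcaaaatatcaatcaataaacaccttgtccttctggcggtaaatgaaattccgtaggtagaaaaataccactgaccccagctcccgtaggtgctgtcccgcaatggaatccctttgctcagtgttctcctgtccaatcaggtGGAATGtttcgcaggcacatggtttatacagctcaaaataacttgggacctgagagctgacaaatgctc
Flnc: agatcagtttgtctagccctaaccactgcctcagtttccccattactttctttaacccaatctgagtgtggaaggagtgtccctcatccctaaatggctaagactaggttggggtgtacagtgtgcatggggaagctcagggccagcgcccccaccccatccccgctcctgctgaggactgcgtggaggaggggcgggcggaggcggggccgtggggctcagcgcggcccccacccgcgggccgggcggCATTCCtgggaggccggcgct
Myom3: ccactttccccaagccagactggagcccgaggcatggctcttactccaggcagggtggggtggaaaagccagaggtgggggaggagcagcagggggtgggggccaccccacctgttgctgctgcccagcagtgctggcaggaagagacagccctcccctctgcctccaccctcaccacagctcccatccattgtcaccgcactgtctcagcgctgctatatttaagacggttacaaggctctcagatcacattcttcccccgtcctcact

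Mypn held M-CAT letters 49 bases before its start. Flnc held M-CAT letters that begin 1 base before its start, and the Myom3 window held none. Of the 40 members, 33 matched the RefSeq promoter table, in windows of 250 bases before to 50 after a start. On both strands, M-CAT letters were in 11 of these 33 genes, against 16.6% of 27025 genes in the table. The MEF2 box, CTA and TAG around 4 bases of A or T, was in Ttn, Mybpc3, Myoz2 and Synpo2l, against 0.636% of all genes. A wider search that allowed any 4 bases there held 9 members, against 4.23%. The E-box of the clock activators, CACGTG, was in Myh7b, Nebl and Actn2, against 8.09% of all genes. The D-box TTATGTAA, or its reverse TTACATAA, was in none of the 33, against 1.11%. A match of letters is a description and not a site of binding.

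In old hearts on water, 0 of 40 members differed between ZT10 and ZT22 by edgeR, against 4.2% of all genes, and 3 had an unadjusted p under 0.05. The nearest was Tcap, with 1835, 1528 and 1766 normalised counts at ZT10 and 1523, 1175 and 982 at ZT22. The groups met without overlapping, the lowest ZT10 heart lying just above the highest ZT22 heart. Its log2 fold change was 0.49 ± 0.14 (SE, adjusted p = 0.0598), and DESeq2 called 1 member, again Tcap, against 3.28% of all genes. With the library total as a term, Tcap was called in all 3 kinds of mice, at 0.56 ± 0.05 in young, 0.42 ± 0.05 in old H2O and 0.36 ± 0.05 in old NR hearts (SE). Its adjusted p values there were 4.79e-08, 1.13e-05 and 3.87e-05, in that order. The median log2 fold change of the members was 0.12 in old H2O hearts, beside -0.001 over all genes, and 0.07 with the total as a term.

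Old hearts on NR had 2 of 40 members called between the times, against 5.37% of all genes. Synpo2l (ENSMUSG00000039376, chr14:20658946-20668354, minus strand), the actin-associated Z-disc protein CHAP, had 1521, 1439 and 1547 normalised counts at ZT10 and 1141, 1174 and 1252 at ZT22. Its log2 fold change was 0.34 ± 0.08 (SE, adjusted p = 0.0162), with no overlap between the groups. Myom3 had 74.2, 52.0 and 51.5 at ZT10 and 79.0, 104 and 84.8 at ZT22, so here it was higher at ZT22. That gave a log2 fold change of -0.62 ± 0.16 (SE, adjusted p = 0.0211). Neither call held without each heart in turn. Synpo2l was lost without old NR ZT10 replicate 1 or 3 or old NR ZT22 replicate 2 (0.32 to 0.33, adjusted p 0.0597 to 0.0659). Myom3 was lost without old NR ZT10 replicate 2 or 3 or old NR ZT22 replicate 2 (-0.53 to -0.48, adjusted p 0.111 to 0.16). Without old NR ZT22 replicate 1, the second smallest library, 5 of 40 members were called, against 5.65% of all genes. Myom3 was also lost when only the old NR groups were fitted (-0.62, adjusted p = 0.0582 by edgeR, and -0.61, adjusted p = 0.106 by DESeq2). Of the 10 marker lists, 3 did not overlap between the old NR groups, namely atrial (2496 to 2636 at ZT10, 3098 to 3668 at ZT22), skeletal muscle (326 to 358 and 380 to 413) and smooth muscle (5309 to 5728 and 4760 to 5267). Their part was not tested. In hearts, Cacna1s (127 to 444 counts) carried most of the skeletal muscle list, and each other gene found from it had at most 32 counts.

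The difference between ages was itself tested as an interaction of age and time. It called 4 of 40 members, against 6.89% of all genes. Positive values mean that ZT10 stood higher relative to ZT22 in old H2O hearts than in young ones. Mypn had an interaction of 0.71 ± 0.12 on the log2 scale (SE, adjusted p = 0.00124), with old H2O values of 2082, 1817 and 1959 at ZT10 and 1783, 1628 and 1619 at ZT22. The old hearts at ZT10 were all above the old hearts at ZT22, opposite to the young ones, and the difference among the old alone was not called (0.22, adjusted p = 0.161). Myot had 1.05 ± 0.19 (SE, adjusted p = 0.00171), with 971, 680 and 704 at ZT10 and 675, 713 and 822 at ZT22 in old H2O hearts, which overlapped.

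Myom3 had an interaction of -1.21 ± 0.24 (SE, adjusted p = 0.00443). Its old H2O values were 67.5, 69.6 and 62.7 at ZT10 and 78.1, 78.5 and 86.8 at ZT22, an order opposite to that in young hearts, but the difference among the old alone was not called (-0.29, adjusted p = 0.361). Flnc had 0.57 ± 0.16 (SE, adjusted p = 0.0325), with 3492, 3470 and 3116 at ZT10 and 3320, 3106 and 3219 at ZT22 in old H2O hearts. The call of Flnc was lost without any 1 of 7 of the 12 hearts, namely old H2O ZT10 replicates 1 and 2, old H2O ZT22 replicates 2 and 3, young ZT10 replicates 2 and 3 and young ZT22 replicate 2. The interaction was then 0.41 to 0.59 (adjusted p 0.0558 to 0.103), and 0.41 without young ZT22 replicate 2. Tcap was not among the 4, and its interaction did not pass the test. The interaction of NR and time in old hearts called 0 of 40 members by edgeR, against 0.343% of all genes, with 1 at an unadjusted p under 0.05 and 0 by DESeq2.

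At ZT10, 2 of 40 members differed between old H2O and young hearts, against 5.87% of all genes. Myot was 2.68-fold higher in old hearts, with every old heart (680 to 971 normalised counts) above every young heart (281 to 308). Its log2 fold change was 1.42 ± 0.14 (SE, adjusted p = 1.61e-06), and it held without each heart in turn. Mypn was 1.23-fold higher, at 1817 to 2082 in old hearts and 1552 to 1639 in young hearts. For Mypn the log2 fold change was 0.30 ± 0.09 (SE, adjusted p = 0.0396). That call was lost without old H2O ZT10 replicate 1 or 3 or any of the 3 young ZT10 hearts (0.25 to 0.32, adjusted p 0.0846 to 0.163).

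At ZT22, 5 of 40 members differed between old H2O and young hearts, against 14.1% of all genes. Higher in old hearts was 1 of 40, against 7.96%, and lower were 4 of 40, against 6.17%. Myom3 was the one that was higher, 2.00-fold, with 78.1 to 86.8 normalised counts in old and 31.3 to 49.7 in young hearts. This was a log2 fold change of 1.00 ± 0.18 (SE, adjusted p = 0.000639). Mypn was lower, at 1619 to 1783 in old and 2066 to 2516 in young hearts, with a log2 fold change of -0.41 ± 0.08 (SE, adjusted p = 0.00281). Thus Mypn stood higher in old hearts by day and lower by night.

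Myh7b (ENSMUSG00000074652, chr2:155611212-155634307, plus strand), a myosin heavy chain related to Myh6 and Myh7, had 1239, 1196 and 1315 normalised counts in old H2O hearts at ZT22 and 1876, 1744 and 1554 in young ones. The groups did not overlap, and the log2 fold change was -0.46 ± 0.11 (SE, adjusted p = 0.0062). Synpo2l had 1370, 1293 and 1262 in old and 1624, 1828 and 1442 in young hearts, with -0.32 ± 0.08 (SE, adjusted p = 0.0117). Flnc had 3106 to 3320 in old and 3508 to 4978 in young hearts, with -0.37 ± 0.11 (SE, adjusted p = 0.0299). Without young ZT22 replicate 2, the highest for these last genes, neither was called (Synpo2l -0.23, adjusted p = 0.0893, and Flnc -0.22, adjusted p = 0.219). Flnc was also lost without old H2O ZT22 replicate 2 (-0.34, adjusted p = 0.099) or replicate 3 (-0.37, adjusted p = 0.0712). Without old H2O ZT22 replicate 1, the smallest library, 8 members were called.

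Marker sums also moved with age. At ZT10, 6 of 10 lists did not overlap between old H2O and young hearts. Higher in old hearts were the skeletal muscle (mostly Cacna1s, 327 to 404 against 210 to 260), macrophage (2263 to 2535 against 1931 to 2157) and red blood cell sums (837 to 979 against 515 to 779). Lower were the endothelial (9538 to 9791 against 9981 to 10530), fibroblast (7532 to 8663 against 8668 to 9318) and smooth muscle sums (5122 to 5423 against 5608 to 6278). At ZT22, 4 of 10 did not overlap, with skeletal muscle (280 to 335 against 216 to 275) and macrophage sums (2482 to 2744 against 1673 to 2009) higher in old hearts. The endothelial sum was lower there (9521 to 10890 against 11190 to 12130), and the fourth was the lung gene at 0 to 2 counts. Their part in the members' age differences was not tested.

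NR called no member at either time. Against old H2O hearts, 0 of 40 members differed at ZT10 (0.285% of all genes called), 0 of 40 at ZT22 (0.35%) and 0 of 40 over both times (0.337%). Those are edgeR counts, with 2, 1 and 1 members at an unadjusted p under 0.05, and DESeq2 on all hearts also called 0 in each. The counts over all genes were unstable, with 44 at ZT10 that became 0 to 22 without 1 library and 54 at ZT22 that became 2 to 78. Fitting only the groups compared gave 234 and 2. The nearest over both times was the tropomyosin Tpm2, with 257, 305 and 296 normalised counts with NR at ZT10 and 394, 327 and 426 with H2O. At ZT22 it had 242, 264 and 262 with NR and 227, 347 and 394 with H2O. The groups separated at ZT10 and overlapped at ZT22, with a log2 fold change over both times of -0.39 ± 0.12 (SE, adjusted p = 0.162). Without old H2O ZT22 replicate 1, or with the library total as a term, 1 member was called, Tpm2. The shares of all genes called there were 0.425% and 0.932%.

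The small differences with NR leaned one way. Over both times 39 of 40 members had a log2 fold change below 0, with a median of -0.096, beside 0.003 over all genes, of which 49.0% were below 0. The NR libraries had higher median totals, 5962458 and 7020472 at ZT10 and ZT22, against 4987058 and 6122256 with H2O. The ranges of the totals overlapped at both times. With the library total as a term, added after seeing the data, 26 of 40 members were below 0 and the median of the members was -0.01. The number below 0 changed mainly at ZT22, from 30 to 16, and the median there went from -0.057 to 0.02. At ZT10 the number went from 35 to 34, and the median from -0.175 to -0.03. Of 10 marker lists, 4 did not overlap between NR and H2O at ZT10 and 4 at ZT22. At ZT10 all 4 were lower with NR, and beside the atrial list they were fibroblast (5989 to 6864 against 7532 to 8663), macrophage (1960 to 2148 against 2263 to 2535) and red blood cell genes (700 to 793 against 837 to 979). At ZT22 fibroblast (6374 to 7387 against 7782 to 9227), macrophage (1871 to 1968 against 2482 to 2744) and smooth muscle sums (4760 to 5267 against 5380 to 5817) were lower with NR. The skeletal muscle sum, mostly Cacna1s, was higher there (380 to 413 against 280 to 335). The part of these sums, and of depth, in the members' values was not tested.

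Other sarcomere genes were read from a second list of 47, of which 43 were tested in hearts. Between the times, 7 of 43 were called in young hearts (16.3%, near the 14.4% of all genes), 1 in old H2O (2.33%, against 4.2%) and 0 in old NR hearts (against 5.37%). In young hearts Ankrd23, a stress-responsive titin-binding ankyrin repeat protein, moved most, at -1.08 ± 0.16 (SE, adjusted p = 5.45e-05), with Pdlim1 and Pdlim7, kin of Pdlim3, at -0.39 and -0.35 and the Xin relative Xirp2 at -0.36. Myh7, the slow beta-myosin heavy chain, was higher at ZT10 in young hearts (0.52, adjusted p = 0.0249). In old H2O hearts the called gene was Myl7, the atrial myosin light chain (1.14, adjusted p = 0.0381).

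Myh7 had 2778, 2283 and 2603 normalised counts in young hearts at ZT10 and 2169, 1651 and 1539 at ZT22. In old H2O hearts it had 3106, 2546 and 2388 at ZT10 and 4552, 3135 and 3147 at ZT22, so the order of the times was turned, although the difference among old H2O hearts was not called (-0.43, adjusted p = 0.123). Its interaction of age and time was -0.94 ± 0.21 (SE, adjusted p = 0.00993), and 3 of 43 genes were called there (6.98%, against 6.89% of all genes), with Ankrd23 (0.99) and Xirp2 (0.50). Against young hearts, old H2O hearts had 4 of 43 called at ZT10 (9.3%, against 5.87% of all genes), 3 higher and 1 lower. At ZT22, 5 of 43 were called (11.6%, against 14.1%), 2 higher and 3 lower. Among the higher was Myh7, by 1.01 ± 0.15 on the log2 scale (SE, adjusted p = 0.000161). Myh6, the main myosin heavy chain of the adult mouse heart, and skeletal alpha-actin Acta1 were called in no heart comparison. Between the times in young hearts Myh6 was at 0.08 (adjusted p = 0.851) and Acta1 at -0.48 (adjusted p = 0.123).

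With NR, 3 of 43 were called at ZT10 (6.98%, against 0.285% of all genes), and all 3 are also atrial genes. Myl4 (-1.97), Myl7 (-1.80) and Mybphl (-3.03) moved with the atrial marker sum described above, which contains Myl4 and Myl7. At ZT22, 1 of 43 was called (2.33%, against 0.35%). Myh7 was lower with NR, with 2474, 2441 and 1775 normalised counts against 4552, 3135 and 3147 with H2O. The groups did not overlap, and the log2 fold change was -0.69 ± 0.15 (SE, adjusted p = 0.0469). The value of 4552 came from old H2O ZT22 replicate 1, the smallest library. Calls of the second list were not checked without single libraries or under other fits.

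HL-1 libraries held few reads of the members that define heart muscle. Myl2, Actc1 and Myot had 0 counts in all 12 libraries, which allows up to 0.0857 to 0.141 CPM at 3 counts per library (counting error only). Actn2, the alpha-actinin of the Z-disc, had 0 to 3 counts, and 21 of 40 members had too few counts to be tested, with 14 at most. Of the 19 tested, 11 had under 100 counts in every library. Beyond the members, the cardiomyocyte markers Pln and Mb had 0 and 0 to 1 counts, Myh6 0 to 6 and the atrial Nppa 0 to 3. The label gives these cells as cardiomyocytes, and these defining markers were at or near 0. Atp2a2, a calcium pump with wide expression, carried nearly all of the cardiomyocyte list. The fibroblast list summed to 59293 to 119694 counts in these libraries, mostly Col3a1 and Col1a1, while Tcf21 was at 0 in all 12. FK_NR replicate 1 stood apart, with 77 counts of the calcium channel Ryr2, 37 of the globin Hbb-bs and 21 of the macrophage gene C1qa, against at most 4, 1 and 0 in the other libraries, and it held all 3 counts of Actn2. Without it the calls in the FK_NR comparisons were the same in number, with Cryab at -0.93 and Tnnt2 at -2.62 against FK866 and Cryab at 0.63 for FK_NR_Ex against FK_NR.

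**Figure D4:**
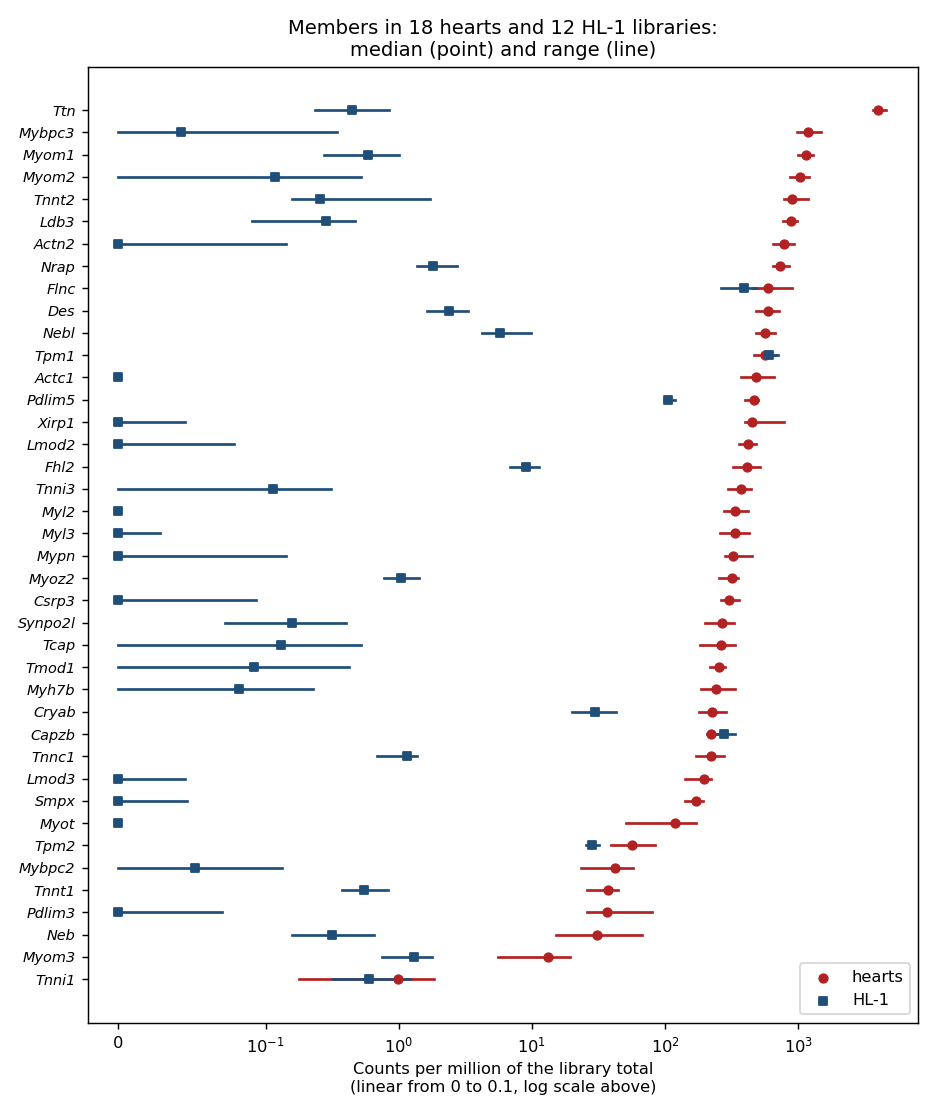
CPM, the counts scaled to the library total (x axis, linear from 0 to 0.1 and log above) for each of the 40 members, ordered by level in hearts, with the median as a point and the range as a line over 18 hearts and 12 HL-1 libraries. Capzb, Tpm1 and Flnc lie at like levels in both, while Actc1, Myl2 and Myot are at 0 in HL-1.

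The highest members in HL-1 cells were Tpm1, Capzb and Flnc. Tpm1, an alpha-tropomyosin gene with non-muscle forms, stood at 2500 ± 193 normalised counts per kilobase (SD, n = 12), with 12692 to 20426 counts in a library. Capzb, the beta subunit of the actin capping protein, stood at 2230 ± 207 and Flnc at 1040 ± 204. Tpm1 and Capzb differed by little more than their spread, and Flnc lay below both. Pdlim5 was the only other member over 1000 counts in every library. Some genes named for striated muscle had few counts in every library, such as Nrap with 36 to 68, Myoz2 with 23 to 41, Tnnc1 with 17 to 48 and Myom3 with 17 to 55. Hearts and cells were counted from separate tables with different library methods, so their levels are set side by side with no test.

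With FK866, 2 of the 19 tested members were called against untreated cells, against 4.59% of 14760 genes, at an adjusted p under 0.01 and a change of over 1.5-fold. Cryab (ENSMUSG00000032060, chr9:50751325-50756636, plus strand), the chaperone alphaB-crystallin that binds desmin and titin, had 686, 597 and 750 normalised counts in Ctrl and 1070, 1080 and 968 with FK866. The groups did not overlap, and the log2 fold change was 0.62 ± 0.08 (SE, adjusted p = 9.35e-05), or 1.54-fold. Its change fell below the fold threshold without Ctrl replicate 2 (0.53) or FK replicate 2 (0.58). Of its exon bases, 17.0% overlap the gene Hspb2 on the other strand, and Hspb2 had 9 to 35 counts. Marker sums moved between the same groups. The fibroblast sum was 97780 to 107100 in Ctrl, 65790 to 69410 with FK866, 97500 to 98770 with FK866 and NR and 85530 to 88630 with Ex527 added. With FK866 the atrial (186 to 221 against 280 to 308) and red blood cell sums (70.3 to 146 against 212 to 225) were also below Ctrl, and the smooth muscle sum was above it (2488 to 2560 against 2418 to 2448). In these cells Stard10 (144 to 293 counts) carried most of the atrial list and Alas2 (36 to 248 counts) most of the red blood cell list. Those 2 sums are thus mainly single genes. The part of the marker sums in the members' changes was not tested.

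Tnnt2 (ENSMUSG00000026414, chr1:135836354-135852260, plus strand), cardiac troponin T, which ties the troponin complex to tropomyosin, rose from 4, 5 and 4 counts in Ctrl to 18, 27 and 43 with FK866. Every FK866 library was above every control, with a log2 fold change of 2.87 ± 0.46 (SE, adjusted p = 0.000364). This level was far below that in hearts, where Tnnt2 had 4289 to 6526 counts in smaller libraries. The promoter of Tnnt2 is shown because it is the cardiac member that moved in these cells. It is given as the others, from 250 bases before to 20 after the upstream RefSeq start, at chr1:135836084-135836353 (GRCm38.p6, plus strand), and the capitals mark M-CAT letters 27 bases before the start.
Tnnt2: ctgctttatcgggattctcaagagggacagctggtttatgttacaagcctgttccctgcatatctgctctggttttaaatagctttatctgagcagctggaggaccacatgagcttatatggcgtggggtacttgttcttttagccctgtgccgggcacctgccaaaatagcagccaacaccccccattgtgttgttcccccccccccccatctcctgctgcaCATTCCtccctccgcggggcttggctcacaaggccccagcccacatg

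NR on top of FK866 moved both genes back. Against FK866 alone, 2 of 19 members were called, against 4.81% of all genes. Cryab had 528, 518 and 570 normalised counts with FK866 and NR, below all FK866 libraries, with a log2 fold change of -0.95 ± 0.09 (SE, adjusted p = 2.59e-06). Tnnt2 had 10, 4 and 6 counts, with -2.12 ± 0.43 (SE, adjusted p = 0.00198). Tnnt2 was lost without FK_NR replicate 2 (-1.88, adjusted p = 0.0139) or replicate 3 (-1.94, adjusted p = 0.0146). Flnc passed the adjusted p but not the fold threshold (0.49 ± 0.11, adjusted p = 0.00394), with 11620, 10690 and 10760 normalised counts against 7708, 7062 and 8794 with FK866. FK_NR cells against Ctrl had 0 of 19 called by edgeR, against 0.901% of all genes, with 8 at an unadjusted p under 0.05 and 0 by DESeq2. The 133 genes behind that share became 427 without Ctrl replicate 1 and 0 without any other 1 of the 6 libraries. These comparisons share the FK866 or the FK_NR libraries.

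Adding Ex527 raised Cryab again. Against FK_NR, 1 of 19 members was called, against 0.596% of all genes. Cryab had 813, 858 and 864 normalised counts with Ex527, all above the FK_NR libraries and below the FK866 libraries, with 0.65 ± 0.09 (SE, adjusted p = 0.000469). It stayed called without each library in turn. Against FK866 alone, 1 of 19 was called, against 1.27%, and this was Tnnt2, with 7, 9 and 13 counts (-1.90 ± 0.40, SE, adjusted p = 0.007). That call was lost without any 1 of the 6 libraries, the 3 FK and the 3 FK_NR_Ex replicates (-2.23 to -1.59, adjusted p 0.0101 to 0.049). Cryab against FK866 alone was -0.30, below the fold threshold (adjusted p = 0.029). Thus Cryab stood in the order FK_NR, Ctrl, FK_NR_Ex and FK866, at 539 ± 27.9, 678 ± 76.8, 845 ± 27.7 and 1039 ± 61.8 normalised counts (SD, n = 3), with no overlap between neighbours.

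**Figure D5:**
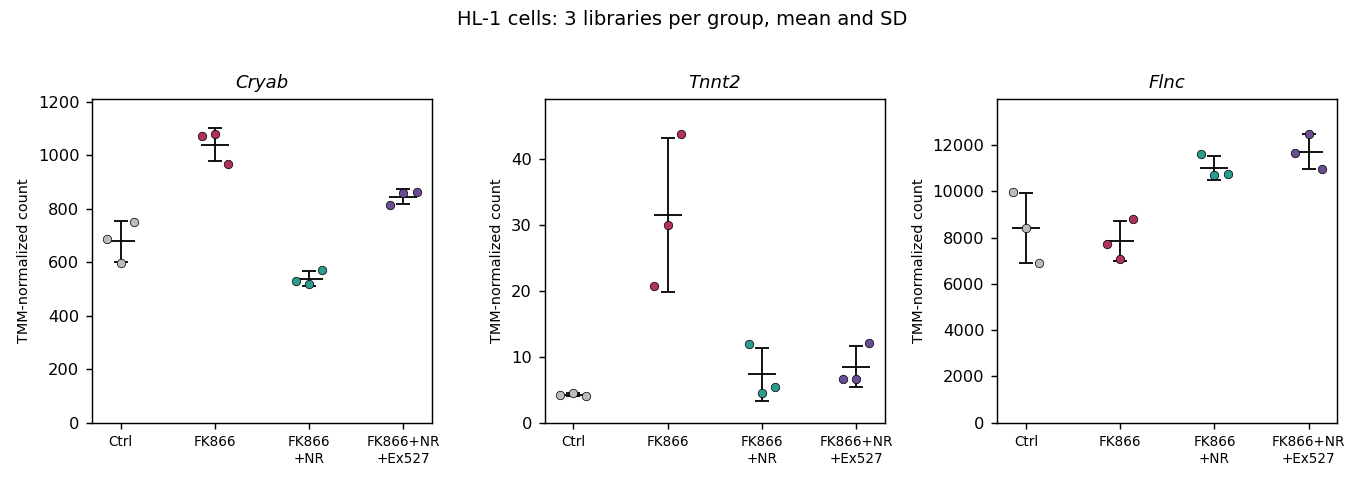
TMM-normalised counts (y axis, from 0) of Cryab, Tnnt2 and Flnc in the 4 groups of HL-1 libraries, with 3 libraries per group as points and the mean with SD as bars. Cryab is highest with FK866 (968 to 1080) and lowest with FK866 and NR (518 to 570), and Tnnt2 stays under 50 normalised counts throughout.

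Of the second list, 26 genes were tested in HL-1 cells. With FK866, 2 were called (7.69%, against 4.59% of all genes), Ankrd1, a stretch-responsive partner of titin and myopalladin, at 1.23 ± 0.09 (SE, adjusted p = 3.47e-07) and the myosin light chain kinase Mylk3 at -0.79. With NR on top of FK866, 3 were called, against 4.81% of all genes, Ankrd1 at -1.13, Mylk3 at 0.72 and the myopalladin relative Palld at 0.59. With Ex527 against FK_NR, 1 was called (3.85%, against 0.596%), Ankrd1 at 0.64 ± 0.09 (SE, adjusted p = 0.000627). For FK_NR_Ex against FK866, 0 of 26 were called by edgeR, against 1.27%. Ankrd1 and Cryab thus each rose with FK866, fell with NR and rose with Ex527.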

How the data were processed

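Stranded single-end mRNA reads of 18 hearts were trimmed by the authors with Trimmomatic 0.39, aligned to mm10 with STAR 2.7.10a, cleared of duplicates with Picard 3.0.0 and of multi-mapping, ribosomal and mitochondrial reads, and counted with featureCounts 2.0.4. The deposited heart table whose name calls it normalised holds whole raw counts (totals 3922137 to 7562215, size factors 0.6799 to 1.445) and was tested. The other deposited heart table holds normalised values rounded to whole numbers (size factors recomputed at 1.005 to 1.008), read here as a score, and gave only gene symbols. For 12 HL-1 libraries the authors deposited raw counts of paired-end reads aligned with HISAT2 to mm10. The counting tool and strand setting are not given in the sources used here. The FPKM table was not used.

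Counts were tested with edgeR 4.0.16 (quasi-likelihood, TMM normalisation, R 4.3.3) and Benjamini-Hochberg adjustment over all genes tested, in 1 fit per table. In hearts, genes averaging over 5 counts (15443) were called at an adjusted p under 0.05. In HL-1 cells, genes passing edgeR's expression filter (14760) were called at an adjusted p under 0.01 and a log2 change over 0.58496. Scripts were tested on simulated data. DESeq2 1.42.0, other filters and scalings, a replicate block, leaving out each library and, added after seeing the data, the library total as a term and a stricter MEF2 search were alternatives. Named with values were every member called, up to 12 per comparison by smallest adjusted p, members with too few counts to test, the 3 highest and 3 lowest per kilobase, up to 5 called genes per comparison of the second list by smallest adjusted p, and Myh6, Myh7 and Acta1. For old H2O against young hearts, only Myh7 of the called genes of the second list was named. Other members were named after their values were seen. The members and lists were chosen with earlier results of these data known. Each replicate pair differed beyond sampling noise (largest chi-square p 4.31e-08). The closest pair, old NR ZT10 replicates 1 and 3, differed by little more than counting noise, with a chi-square per gene of 1.07. The other heart pairs had 1.71 to 6.68. Whether that closest pair came from separate hearts was not tested beyond this. Where labels do not say that libraries came from separate cultures, p-values measure only the spread between these samples.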

Additional observations from a re-analysis of the deposited data

Results flagged for a closer look

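The groups hold 3 samples each, so none was tested for an outlying sample. The difference between young and old H2O hearts in the change from ZT22 to ZT10 was tested as an interaction of age and time (edgeR, adjusted p under 0.05) for the members and the second list, and 7 genes passed. Among the members, the interaction on the log2 scale was -1.21 for Myom3, 1.05 for Myot, 0.71 for Mypn and 0.57 for Flnc. In the second list it was -0.94 ± 0.21 for Myh7 (SE, adjusted p = 0.00993), 0.99 ± 0.22 for Ankrd23 (adjusted p = 0.00774) and 0.50 ± 0.15 for Xirp2 (adjusted p = 0.0458). Myom3 and Myh7 were higher at ZT10 in young hearts, and the other 5 were higher at ZT22 in young hearts. Among old H2O hearts alone, the difference between the times was called for none of the 7 by edgeR, with Myom3 at -0.29 (adjusted p = 0.361) and Myh7 at -0.43 (adjusted p = 0.123).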

How the results depend on the processing

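No result reversed. Of 227 values of single genes under alternatives, 217 kept their side of the threshold, as did 145 of 180 values without 1 library. The 10 lost calls were those of Xirp1 between the times in young hearts, Myom3 in old NR hearts and Flnc and Synpo2l for age at ZT22, each on fitting only the groups compared by edgeR, DESeq2 or both, and of Tnnt2 in 4 fits of FK_NR_Ex against FK. Old H2O hearts between the times had 1 member called, Tcap, in place of 0 with DESeq2 on all libraries or on only the groups compared. The same held with library totals without TMM, no filter, the replicate block or the library total as a term. These fits called 2.14% to 5.28% of all genes. The library total as a term, chosen after seeing the data, gave 5 members between the times in old NR hearts (against 7.91% of all genes). It gave 5 for age at ZT10 (against 9.21%), 8 for age at ZT22 (against 16.9%) and 1 for NR over both times (against 0.932%). Fitting only the groups compared gave 4 for age at ZT10 (against 9.79%), or 6 with DESeq2 (against 4.83%). It gave 3 for age at ZT22 (against 7.56%) and 2 for NR at ZT10 (against 1.52%). FK_NR_Ex against FK had 0 in place of 1 with DESeq2 on all libraries, no filter or an average count over 5. It also had 0 with the replicate block or only the groups compared, and 3 with no fold threshold (against 4.75% of all genes). DESeq2 gave Tnnt2 no adjusted p there. FK_NR_Ex against FK_NR had 2 with no filter (against 1.73%), and FK_NR against Ctrl had 1 with no fold threshold (against 2.66%). Beyond fewer samples in a fit, the cause was not tested.

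Without 1 library, counts between the times ranged from 6 to 9 in young hearts, against 9.61% to 13.6% of all genes. They ranged from 0 to 1 in old H2O hearts (against 2.26% to 4.81%) and 0 to 5 in old NR hearts (against 2.95% to 5.65%). For age they ranged from 1 to 2 at ZT10 (against 3.09% to 3.97%) and 4 to 8 at ZT22 (against 8.56% to 12.9%). For NR over both times they ranged from 0 to 1 (against 0.142% to 0.425%). In HL-1 cells they ranged from 1 to 2 for FK against Ctrl (against 3.57% to 5.17%). For FK_NR against FK they ranged from 1 to 3 (against 3.48% to 6.27%), and for FK_NR_Ex against FK from 0 to 1 (against 0.743% to 1.93%). The replicate numbers did not pair the samples: same-number correlations were -0.09 to 0.15 over 15 pairs of heart groups and -0.26 to 0.13 over 6 of HL-1 groups, and no pair of groups had all over 0.1. Between the times, the replicate block gave 9 members in young (against 15.7% of all genes), 1 in old H2O (against 4.93%) and 3 in old NR hearts (against 6.24%). It gave 7 for age at ZT22 (against 15.5%). Depth limits Tnni1, Neb and Myom3 in hearts and 11 tested members with under 100 counts in HL-1 cells.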
